A study of Homo sapiens with 12 samples.

Results

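The comparison described here sets RCC4 cells labelled VHL against RCC4 cells labelled Vec after 6 h in cystine-deprived medium. It uses 3 arrays per line, 6 of the 12 arrays of the series, and covers 11963 genes, each represented by the probe set with the highest mean over all 12 arrays. RCC4 is an established human clear cell renal carcinoma line, and the series title speaks of VHL-deficient and VHL-restored cells. The 4 groups were Vec and VHL cells in full medium (DMEM with fetal bovine serum) and in deprived medium (DMEM without cystine, with dialysed serum). Both deprived groups carried the same medium and serum, so these do not differ within the comparison, whereas a contrast between media changes cystine and serum together. The labels number the arrays 1 to 3 as biological replicates but do not say whether these were separate cultures or whether each line is a clone or a pool. P-values therefore measure the spread between these arrays, which may be technical. With 1 line of each kind, VHL and any other difference between the lines cannot be told apart.

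The VHL protein is the substrate-binding part of a ubiquitin ligase that captures the alpha subunits HIF1A and EPAS1 (HIF-2 alpha) of the hypoxia-inducible factors, or HIF, after prolyl hydroxylases have marked them. Without VHL the subunits persist and drive genes for glucose uptake, glycolysis, blood vessel growth, acid export and mitochondrial turnover, and loss of VHL is the hallmark of clear cell renal carcinoma. Cystine is the oxidised form of cysteine, which cells import to make glutathione, and its absence activates the amino acid response led by the transcription factor ATF4.

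Values are deposited log2 expression values, and differences are VHL minus Vec, so a positive value means a higher level in VHL cells. Genes count as called at an adjusted p under 0.05 (limma, Benjamini-Hochberg over the 11963 genes), and ± gives the standard error from the fit. Unless stated otherwise, sizes belong to the probe set kept for each gene. Counts of probe sets give how many were called in the direction stated. Array medians lay between 7.12 and 7.18. Correlations across genes were between 0.9979 and 0.9988 for the 6 pairs of arrays within a deprived group and between 0.9762 and 0.9778 for the 9 pairs across the groups. Renal markers were measured in both lines: mean levels in Vec and VHL cells were 11.04 and 10.85 for PAX8, a transcription factor of the kidney lineage, 9.69 and 9.99 for PAX2, another such factor, and 11.32 and 11.33 for the kidney cadherin CDH6. These are part of a longer set of renal markers. In that set CDH16 was higher in VHL cells, as given below, and LHX1 was lower, a call lost when any of several single arrays was left out. VHL itself gave 5.87, 6.07 and 6.03 on the Vec arrays and 5.94, 5.93 and 5.94 on the VHL arrays, a difference of -0.05 ± 0.05 (adjusted p = 0.475). The groups overlapped, and all of these values lay below 6.47, a limit that the means of 7985 of the 11963 genes exceed and below which values are called dim here. Where this probe set lies relative to the introduced sequence was not examined, so it does not check the labels, and the group names used are those of the labels.

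In deprived medium the lines differed in 5650 genes (47.2% of those tested), of which 2897 were higher in VHL cells (24.2%) and 2753 lower (23.0%). Most of these differences were small, with a median size of 0.38 among called genes. A fold of at least 2 was reached by 524 called genes (4.38%), 262 in each direction (2.19% each). A fold of at least 4 was reached by 45 genes higher and 64 lower, and a fold of at least 8 by 17 higher and 18 lower. The 3 VHL arrays did not overlap the 3 Vec arrays in 6489 genes (54.2%). Above the dim limit, 62.6% of 7985 genes were called, 32.0% higher and 30.6% lower. Gene lists made up mostly of genes above the limit are best set against these larger shares. Unless stated otherwise, the shares printed beside lists below are those of all genes. The median difference over all genes was 0.003.

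**Figure D1:**
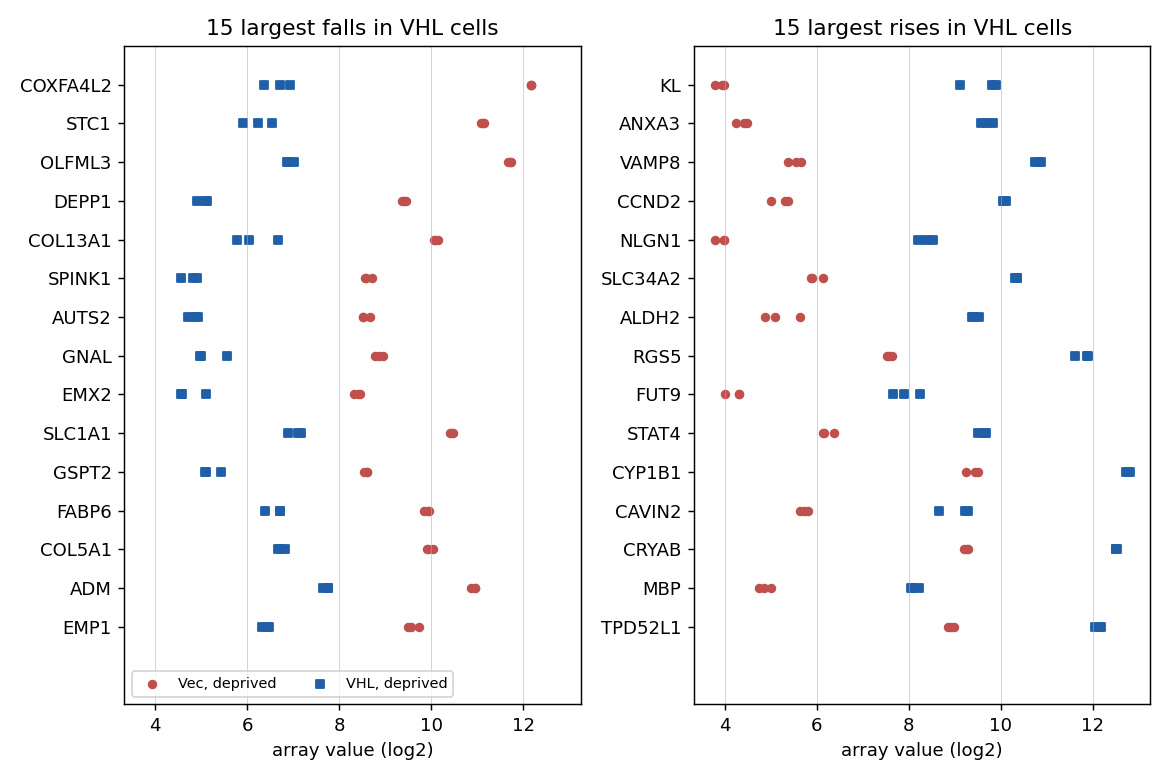
Array values (log2, horizontal axis) in deprived medium of the 15 genes with the largest differences in each direction, 1 row per gene and 1 point per array, for 3 Vec and 3 VHL arrays. Only called genes without overlap between the lines were eligible, so the absence of overlap is given by the choice. KL goes from 3.79 to 3.97 in Vec cells to 9.10 to 9.90 in VHL cells, and COXFA4L2 from 12.17 to between 6.37 and 6.92.

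Genes with the largest loss in VHL cells included several known HIF targets. COXFA4L2 (long known as NDUFA4L2), a mitochondrial protein that HIF induces, read 12.17 on each of the 3 Vec arrays and 6.92, 6.71 and 6.37 on the VHL arrays. It was 45.3-fold lower (-5.50 ± 0.12, adjusted p = 8.93e-13), the largest fall among the probe sets kept for each gene. STC1, which encodes the secreted glycoprotein stanniocalcin 1, read 11.14, 11.12 and 11.08 in Vec cells and 6.23, 5.91 and 6.54 in VHL cells, 29.6-fold lower. Its 3 probe sets were all lower, by between -5.58 and -1.91. The secreted olfactomedin family glycoprotein OLFML3 read 11.66, 11.70 and 11.74 against 6.89, 6.86 and 7.02, 27.4-fold lower. The Vec levels of these 3 genes lay between 11.08 and 12.17 and the VHL levels between 5.91 and 7.02.

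DEPP1, a gene induced by FOXO transcription factors, read 9.44, 9.40 and 9.37 in Vec cells and 5.13, 4.91 and 5.10 in VHL cells, 20.5-fold lower, although 1 of its 2 probe sets gave only -0.19 and was not called. ADM, encoding the vasodilating peptide adrenomedullin, read 10.86, 10.95 and 10.95 against 7.76, 7.76 and 7.65, 9.19-fold lower (-3.20 ± 0.05, adjusted p = 1.16e-13). SLC1A1, the glutamate transporter EAAT3, which also carries cysteine, read 10.45, 10.47 and 10.41 against 6.89, 7.10 and 7.16, 10.5-fold lower. The intracellular bile acid-binding protein FABP6 read 9.92, 9.94 and 9.84 against 6.39, 6.72 and 6.71, 9.81-fold lower. In the same range of falls were 2 collagens, COL13A1 (15.3-fold) and COL5A1 (9.31-fold), the trypsin inhibitor SPINK1 (14.5-fold), the G-protein alpha subunit GNAL (12.8-fold) and the homeobox gene EMX2 of urogenital development (12.5-fold). AUTS2 (13.4-fold), the translation termination factor GSPT2 (10.3-fold) and the epithelial membrane protein EMP1 (9.11-fold) complete the 15 largest falls. The VHL level was dim in 9 of the 15, which limits a fold by background signal.

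Rises of similar size appeared in VHL cells. KL, which encodes klotho, a distal tubule co-receptor for the phosphate-regulating hormone FGF23, read 3.97, 3.79 and 3.93 in Vec cells and 9.10, 9.80 and 9.90 in VHL cells. It was 52.2-fold higher (5.71 ± 0.20, adjusted p = 8.77e-11), the largest rise among the probe sets kept. ANXA3, an annexin that binds phospholipids in the presence of calcium, read 4.47, 4.41 and 4.23 against 9.69, 9.56 and 9.82, 39.9-fold higher. VAMP8, a membrane fusion protein of endosomes and lysosomes, read 5.66, 5.54 and 5.37 against 10.87, 10.83 and 10.73, 39.1-fold higher. The Vec levels of all 3 lay in the dim range, so their folds are set against background.

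CCND2, the cell cycle activator cyclin D2, read 5.37, 5.31 and 5.01 in Vec cells and 10.07, 10.11 and 10.05 in VHL cells, 28.7-fold higher with 3 probe sets agreeing. The sodium-phosphate cotransporter SLC34A2 read 6.13, 5.87 and 5.90 against 10.34, 10.34 and 10.31, 20.6-fold higher. ALDH2, the mitochondrial aldehyde dehydrogenase that clears acetaldehyde, read 5.08, 4.88 and 5.63 against 9.53, 9.37 and 9.42, 18.9-fold higher. In these genes too the 3 VHL arrays lay within a narrow range, while separation from the Vec arrays was a condition of the choice.

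Other rises started from measurable Vec levels. RGS5, which shortens G-protein signals and is best known from pericytes, read 7.57, 7.64 and 7.53 against 11.62, 11.87 and 11.89, 18.5-fold higher. The cytochrome P450 enzyme CYP1B1 read 9.24, 9.43 and 9.50 against 12.72, 12.80 and 12.78, 10.4-fold higher. CRYAB, the small heat shock protein alpha B-crystallin, read 9.27, 9.20 and 9.29 against 12.52, 12.50 and 12.50, 9.53-fold higher. TPD52L1 was 9.30-fold higher, with both of its probe sets higher. Of the rest, the synaptic adhesion molecule NLGN1 was 21.8-fold higher, the transcription factor STAT4 10.5-fold and the caveolar protein CAVIN2 10.0-fold. FUT9 (13.3-fold) and MBP (9.47-fold) rest on 1 of 3 and 1 of 4 probe sets, the others not being called. The Vec level was dim in 11 of the 15 largest rises.

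On the list of HIF pathway genes, 14 of 15 were measured, of which 3 were higher (21.4%), 4 lower (28.6%) and 7 not called (median -0.04), close to the 24.2% and 23.0% of all genes. EGLN3, the prolyl hydroxylase that HIF itself induces, read 8.66, 8.59 and 8.68 in Vec cells and 5.59, 5.44 and 5.58 in VHL cells, 8.62-fold lower (-3.11 ± 0.06, adjusted p = 3.08e-13) with dim VHL values, so the fold is limited by background. The mRNAs of the alpha subunits moved in opposite directions. EPAS1 read 12.80, 12.93 and 12.81 against 11.95, 12.13 and 12.12, a difference of -0.78 ± 0.06 (adjusted p = 3.62e-07). HIF1A read 12.80, 12.71 and 12.72 against 13.33, 13.53 and 13.56, a difference of 0.73 ± 0.08 (adjusted p = 3.97e-06). Both transcripts were bright in both lines, and no array of one line entered the range of the other. Among their dimerisation partners ARNT2 was lower by -1.99 ± 0.09, with VHL values in the dim range, and ARNT was higher by 0.68 ± 0.08 on 2 of 3 probe sets. CITED2, which competes with HIF for its coactivator, was higher by 1.15 ± 0.13.

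Secreted HIF targets were mixed. Of 20 measured of 23 listed, 9 were lower (45.0%, against 23.0% of all genes), 3 higher (15%, against 24.2%) and 8 not called (median -0.17). Of those lower, 5 reached 2-fold, which 2.19% of all genes did. ANGPTL4, a lipoprotein lipase inhibitor, read 10.90, 10.87 and 10.84 in Vec cells and 8.84, 8.55 and 8.54 in VHL cells, 4.67-fold lower. EDN1, the vasoconstrictor endothelin 1, read 9.37, 9.24 and 9.37 against 7.64, 7.36 and 7.43, 3.60-fold lower. VEGFA, the principal angiogenic factor downstream of HIF, read 11.36, 11.46 and 11.46 against 10.56, 10.54 and 10.61, 1.81-fold lower (-0.86 ± 0.10, adjusted p = 7.5e-06), and its 4 probe sets were all lower. The collagen cross-linking enzymes LOXL2 (-1.41 ± 0.04) and LOX (-1.38 ± 0.05) fell together, each on 2 of 3 probe sets. The ephrin ligand EFNA1 went the other way, at 6.76, 6.57 and 6.67 against 9.03, 8.71 and 8.65, 4.38-fold higher.

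HIF targets for acid handling, migration, dioxygenases and differentiation were mostly lower. Of 31 measured of 35 listed, 24 were lower (77.4%, against 23.0% of all genes), 3 higher and 4 not called, and 15 were lower by at least 2-fold (median -0.92, against 0.003 for all genes). CA12, a membrane carbonic anhydrase that acidifies the cell surface, read 11.08, 11.10 and 11.09 in Vec cells and 8.13, 8.10 and 8.05 in VHL cells, 8.01-fold lower, with all 6 probe sets lower. NDRG1, a hypoxia-induced differentiation gene, read 11.91, 12.07 and 11.83 against 10.04, 10.03 and 10.01, 3.77-fold lower. TMEM158 was 5.58-fold lower and PPFIA4 4.71-fold lower, the latter to a dim level. DDIT4, an inhibitor of the growth kinase mTORC1 that both HIF and ATF4 induce, read 12.73, 12.71 and 12.67 against 10.81, 10.74 and 10.77, 3.81-fold lower. The highest member was the histone demethylase KDM5B, at 0.81 ± 0.06, which lies outside the naming rule.

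**Figure D2:**
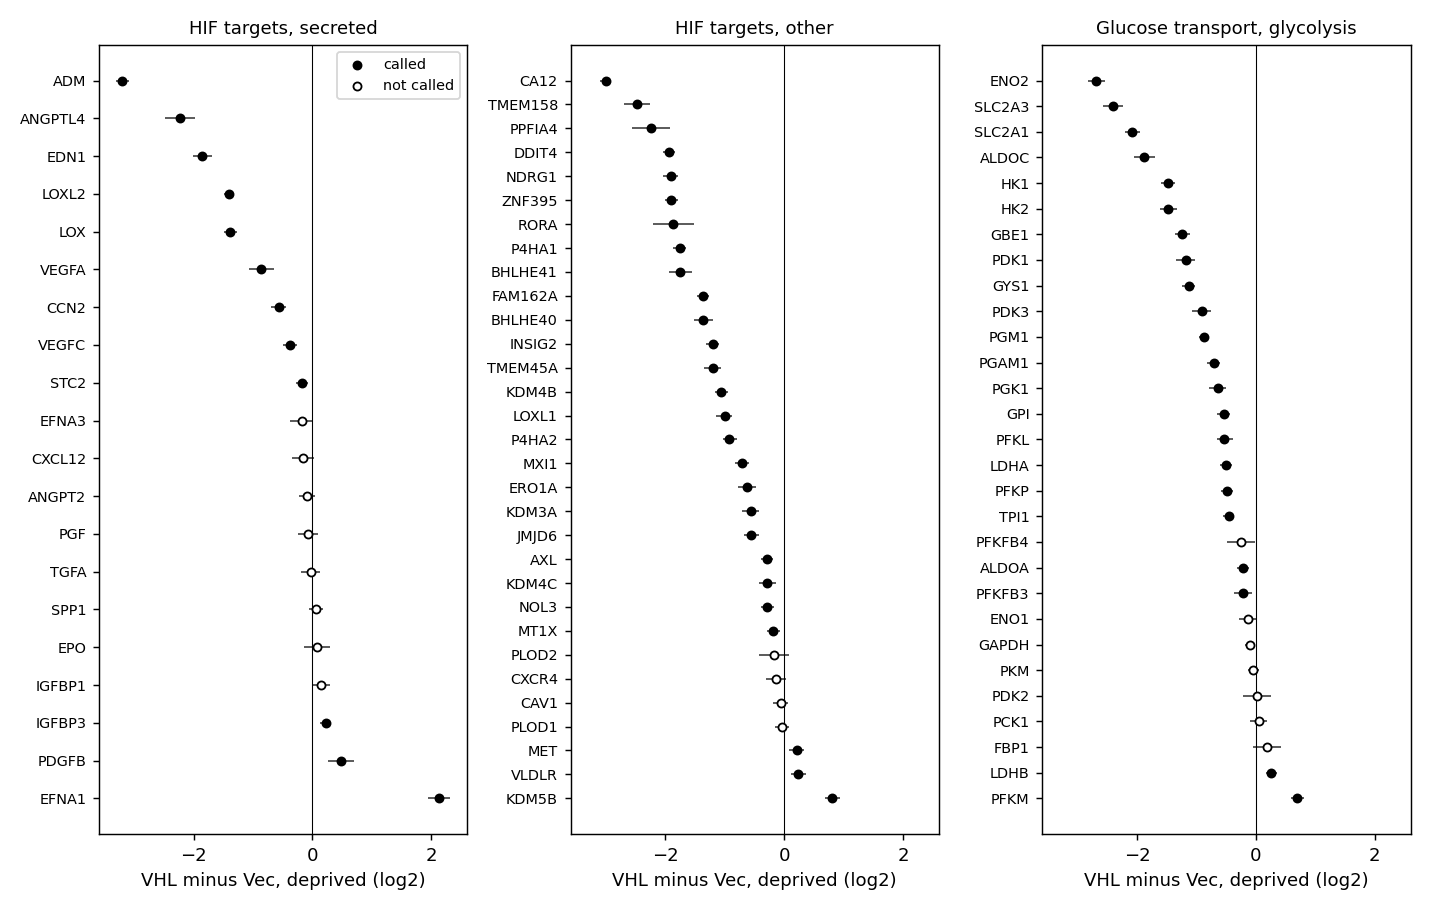
Log2 difference, VHL minus Vec in deprived medium (horizontal axis), of every measured member of the 2 HIF target lists and of the glucose transport and glycolysis list, 1 row per gene and 1 panel per list. Points are the fitted difference over 3 arrays per line, filled where called and open where not, and bars are 95% confidence intervals. Most points lie left of 0, with ADM at -3.20, CA12 at -3.00 and ENO2 at -2.68 lowest in their panels, while EFNA1 stands at 2.13.

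Glucose transport and glycolysis genes were mostly lower in VHL cells. Of 29 genes measured of 32 listed, 20 were lower (69.0%, against 23.0% of all genes), 2 higher (6.90%, against 24.2%) and 7 not called, with 9 lower by at least 2-fold (median -0.53). The glucose transporter SLC2A1 (GLUT1) read 12.28, 12.34 and 12.30 in Vec cells and 10.28, 10.30 and 10.11 in VHL cells, 4.22-fold lower (-2.08 ± 0.06, adjusted p = 1.13e-11). SLC2A3 (GLUT3), another transporter of high affinity, read 8.35, 8.39 and 8.23 against 5.91, 5.78 and 6.05, 5.31-fold lower, a fold limited by the dim VHL values. Within the pathway, ENO2, an enolase isoform, read 11.41, 11.52 and 11.41 against 8.70, 8.91 and 8.70, 6.40-fold lower (adjusted p = 5.85e-12). The aldolase ALDOC was 3.67-fold lower and hexokinase HK1, which starts glycolysis, 2.79-fold lower. The highest member was the phosphofructokinase subunit PFKM, at 0.70, outside the naming rule.

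Promoters of 5 of these genes are shown because they include the largest fall, a secreted target, a glycolytic enzyme, the gene with the smallest p for a difference between media, and the largest rise. The sequences are RefSeq promoters of assembly GRCh38.p14, from 250 bases before the gene's start to 50 bases after it, written along the gene's strand. Capitals mark ACGTG or GCGTG on either strand, the letters of the core HIF motif. COXFA4L2 lies at chr12:57240713-57241012 (minus strand) with 2 matches, ADM at chr11:10304823-10305122 (plus strand) with 1, ENO2 at chr12:6914330-6914629 (plus strand) with 1, DDIT4 at chr10:72273674-72273973 (plus strand) with 4 and KL at chr13:33016173-33016472 (plus strand) with 0.
COXFA4L2: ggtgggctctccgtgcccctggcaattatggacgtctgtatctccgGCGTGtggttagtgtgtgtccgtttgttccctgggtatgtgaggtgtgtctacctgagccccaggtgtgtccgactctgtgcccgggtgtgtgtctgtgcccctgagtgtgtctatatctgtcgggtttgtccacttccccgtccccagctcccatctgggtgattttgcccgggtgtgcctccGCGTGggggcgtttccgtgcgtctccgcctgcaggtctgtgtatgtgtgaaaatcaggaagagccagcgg
ADM: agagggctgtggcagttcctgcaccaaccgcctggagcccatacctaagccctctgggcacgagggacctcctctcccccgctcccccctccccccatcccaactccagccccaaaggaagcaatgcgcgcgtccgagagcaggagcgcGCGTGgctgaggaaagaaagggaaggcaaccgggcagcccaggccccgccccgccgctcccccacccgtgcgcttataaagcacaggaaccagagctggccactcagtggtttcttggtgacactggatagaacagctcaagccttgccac
ENO2: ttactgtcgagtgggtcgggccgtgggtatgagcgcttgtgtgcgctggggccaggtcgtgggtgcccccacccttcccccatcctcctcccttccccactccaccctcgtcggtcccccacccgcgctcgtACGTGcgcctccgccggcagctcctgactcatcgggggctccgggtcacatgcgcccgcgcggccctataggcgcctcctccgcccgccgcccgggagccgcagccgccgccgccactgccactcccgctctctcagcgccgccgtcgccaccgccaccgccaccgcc
DDIT4: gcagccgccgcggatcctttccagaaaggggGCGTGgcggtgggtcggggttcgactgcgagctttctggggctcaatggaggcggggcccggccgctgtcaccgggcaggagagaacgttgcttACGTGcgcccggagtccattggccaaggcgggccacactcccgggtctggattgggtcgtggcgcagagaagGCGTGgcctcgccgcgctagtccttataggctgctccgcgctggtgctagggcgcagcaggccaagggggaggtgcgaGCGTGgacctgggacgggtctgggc
KL: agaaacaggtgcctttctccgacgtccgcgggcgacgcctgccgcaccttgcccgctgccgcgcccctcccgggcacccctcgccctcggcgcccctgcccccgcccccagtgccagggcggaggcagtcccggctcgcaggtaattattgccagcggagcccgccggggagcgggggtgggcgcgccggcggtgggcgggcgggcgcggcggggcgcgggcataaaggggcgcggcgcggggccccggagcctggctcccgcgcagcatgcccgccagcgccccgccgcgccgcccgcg

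The motif occurred in 48.4% of all 35116 promoters given and in 58.7% of those of the 9563 matched genes of the array. Of the 29 HIF target and glycolysis members that were lower by at least 2-fold, 25 had a promoter entry and 20 of these held it (80.0%). They were picked by list membership and by the same difference, and list members that were not lower were not counted. Their share therefore does not describe falls in general. Of the 15 largest falls 14 had an entry and 8 held it (57.1%), close to the 58.7% of array genes. Of the 15 largest rises 11 had an entry and 4 held it (36.4%). A match describes these letters only, and binding was not measured.

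Mitochondrial genes were described by 2 lists. On the list of mitophagy, autophagy and HIF-induced mitochondrial genes, 18 of 20 were measured. Of these, 8 were higher (44.4%, against 24.2% of all genes) and 7 lower (38.9%, against 23.0%), with a median of 0.07. Among genes above the dim limit 32.0% were higher and 30.6% lower. BNIP3, a receptor that tags mitochondria for autophagy, read 13.22, 13.24 and 13.30 in Vec cells and 11.19, 11.20 and 11.25 in VHL cells, 4.11-fold lower, and its relative BNIP3L was lower by -1.40 ± 0.10. SQSTM1, the autophagy cargo adaptor p62, was higher by 0.96 ± 0.04. Subunits of the respiratory chain and ATP synthase were more often higher, at 17 of 27 measured (63.0%, against 24.2% of all genes) with 3 lower (median 0.26). UQCRC2, a core protein of complex III, read 10.46, 10.55 and 10.58 against 11.54, 11.73 and 11.55, 2.10-fold higher. SDHC of complex II was higher by 0.74 ± 0.05, with all 4 probe sets higher, and UQCRB of complex III was lower by -0.94 ± 0.07, with all 3 lower.

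Lipid synthesis genes were mostly lower. Of 18 sterol and fatty acid synthesis genes measured of 23 listed, 13 were lower (72.2%, against 23.0% of all genes) and 2 higher (11.1%, against 24.2%; median -0.36). The stearoyl-CoA desaturase SCD, which makes monounsaturated fatty acids, read 12.54, 12.69 and 12.65 in Vec cells and 10.14, 10.29 and 10.38 in VHL cells, 5.12-fold lower. The cholesterol enzymes DHCR7 (-1.19 ± 0.06) and SQLE (-0.90 ± 0.05) were lower on every probe set. Among 21 genes of lipid droplets and lipid uptake measured, 9 were lower (42.9%, against 23.0%) and 4 higher (19.0%, against 24.2%), with a median of -0.12. The droplet genes HILPDA (-1.02 ± 0.05) and PLIN2 (-0.95 ± 0.06) were lower, PLIN2 on 1 of 2 probe sets, and CPT1A, which feeds fatty acids into mitochondria, was higher by 0.80 ± 0.13 from a dim level.

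**Figure D3:**
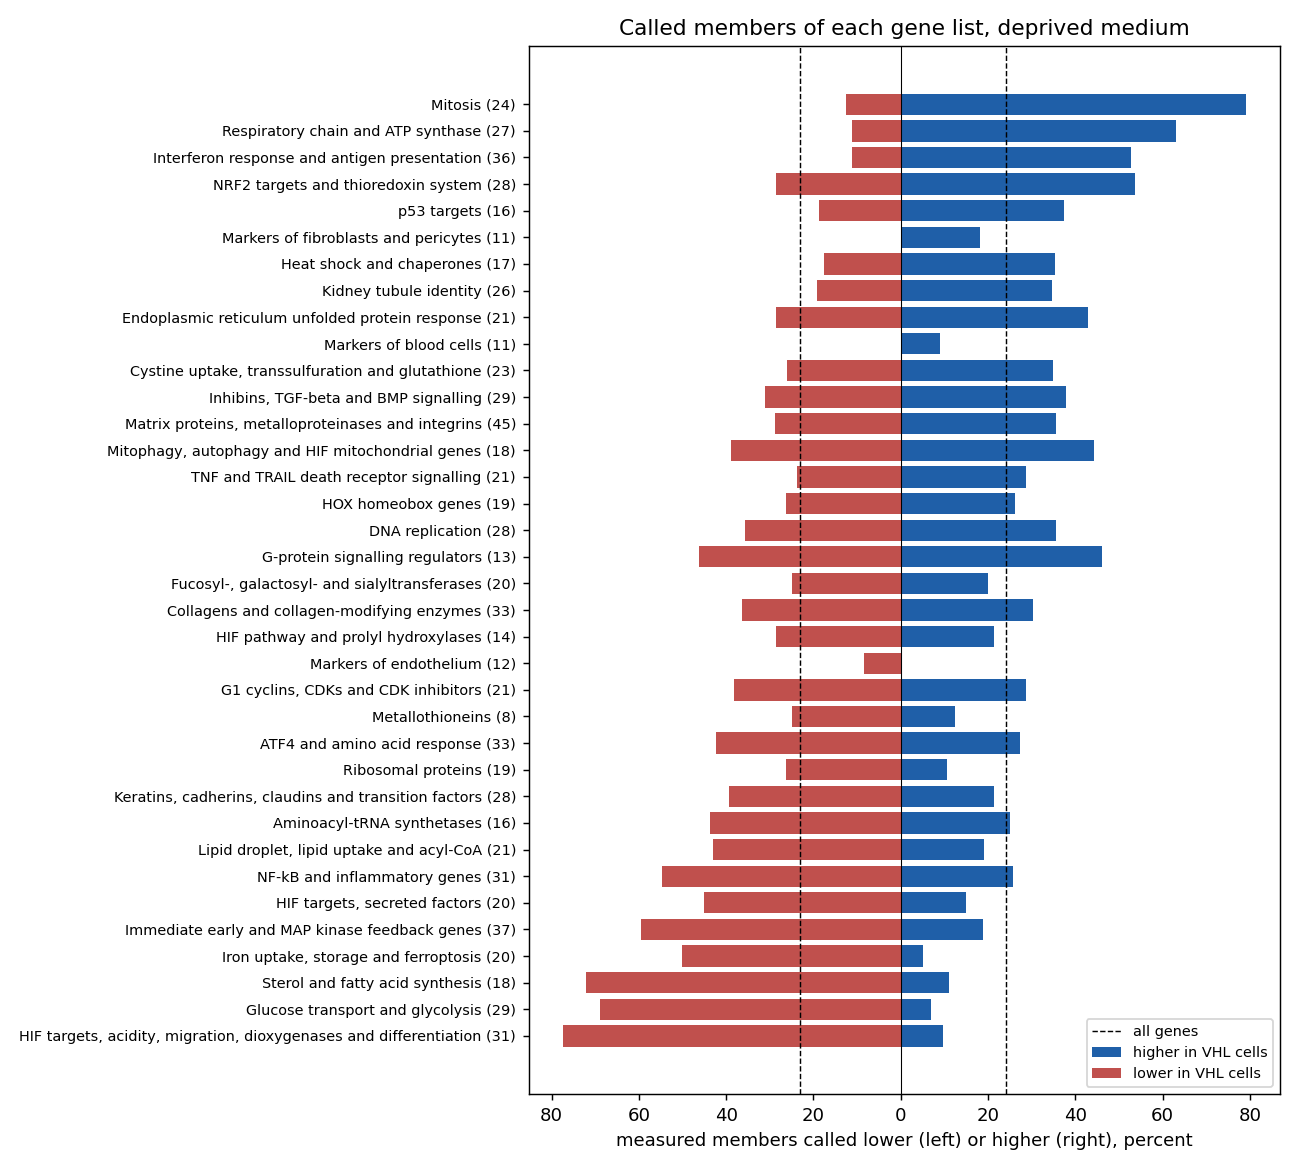
Percent of the measured members of each gene list (number in brackets) called higher in VHL cells (bars to the right) or lower (bars to the left) in deprived medium, 1 row per list, with dashed lines at the 24.2% and 23.0% of all genes. For genes above the dim limit these shares were 32.0% and 30.6%. The HIF targets for acid handling and differentiation reach furthest left, at 77.4%, and the mitosis genes furthest right, at 79.2%.

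Genes that import cystine and build glutathione did not move as a group. Of 23 measured of 25 listed, 8 were higher (34.8%, against 24.2% of all genes), 6 lower (26.1%, against 23.0%) and 9 not called (median 0.05). Only 3 of the 23 were dim on all 6 arrays, and above the dim limit 32.0% of genes were higher and 30.6% lower. Beside the fall of SLC1A1, glutathione reductase GSR read 7.84, 7.79 and 7.90 in Vec cells and 9.22, 9.03 and 9.08 in VHL cells, 2.41-fold higher. CBS, the first enzyme of transsulfuration, read 5.35, 5.85 and 5.58 against 6.69, 7.05 and 7.02, a difference of 1.33 ± 0.12 from a dim Vec level, and the glutathione transferase GSTP1 was higher by 0.82 ± 0.04. CHAC1, which degrades glutathione, read 10.29, 10.35 and 10.08 against 9.54, 9.45 and 9.59, 1.64-fold lower (adjusted p = 3.25e-05). A further 2 genes were chosen after their values were seen. The cystine transporter SLC7A11 differed by 0.20 ± 0.08 (adjusted p = 0.0522, 95% interval 0.03 to 0.36), and the lipid peroxide reductase GPX4 by 0.06 ± 0.05 (adjusted p = 0.297, interval -0.04 to 0.16).

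Redox and iron genes divided. Among 28 NRF2 targets and thioredoxin genes measured, 15 were higher (53.6%, against 24.2% of all genes) and 8 lower (28.6%, against 23.0%; median 0.16). Shares above the dim limit were 32.0% higher and 30.6% lower. The quinone reductase NQO1 read 10.57, 10.68 and 10.53 in Vec cells and 11.62, 11.63 and 11.64 in VHL cells, 2.05-fold higher, and the exporter ABCC3 was 2.38-fold higher. HMOX1, the heme-degrading oxygenase, read 11.95, 11.88 and 11.90 against 10.18, 10.08 and 10.03, 3.51-fold lower, and the small Maf protein MAFF was 3.78-fold lower. Iron and ferroptosis genes were more often lower than higher, 10 of 20 measured (50%, against 23.0% of all genes) with 1 higher (5%, against 24.2%; median -0.22). This list shares HMOX1 and includes the spermidine acetyltransferase SAT1 (-1.43 ± 0.06), the iron transporter SLC11A2 (-1.01 ± 0.07) and the transferrin receptor TFRC (-0.71).

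The amino acid response contained changes of both signs. Of 33 measured ATF4-linked genes of 37 listed, 9 were higher (27.3%, against 24.2% of all genes) and 14 lower (42.4%, against 23.0%; median -0.10). ALDH18A1, a proline synthesis enzyme, was lower by -0.78, and INHBE, an inhibin subunit, was higher by 0.72. GDF15, a stress-induced cytokine, was higher by 1.15 ± 0.06 on 1 of 2 probe sets; without probe sets whose names mark shared sequence its difference was -0.041 and not called. Aminoacyl-tRNA synthetases gave 4 higher and 7 lower of 16 measured (median 0.01), with no member past 2-fold. ER unfolded protein response genes were 9 higher (42.9%) and 6 lower (28.6%) of 21, also with none past 2-fold. The chaperone HYOU1 was at 0.57 and the secreted factor MANF at -0.69. Heat shock genes were 6 higher (35.3%) and 3 lower (17.6%) of 17, and CRYAB alone exceeded 2-fold. Of p53 targets, 6 of 16 were higher (37.5%) and 3 lower (18.8%), from PLK3 at -0.96 to the phosphatase PPM1D at 0.95. For comparison with all of these lists, 32.0% of genes above the dim limit were higher and 30.6% lower.

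Death receptor genes showed no common direction and shares near those of all genes. Of 21 measured, 6 were higher (28.6%, against 24.2% of all genes), 5 lower (23.8%, against 23.0%) and 10 not called (median 0.00). TNF, the cytokine, read 5.86, 5.87 and 5.75 in Vec cells and 5.98, 5.78 and 5.78 in VHL cells, dim on all 6 arrays and not called (0.03 ± 0.07, adjusted p = 0.792). Its receptor TNFRSF1A was higher by 0.21 ± 0.05 (adjusted p = 0.00383). TNFRSF21, a receptor with a death domain, was 2.09-fold higher, and the decoy receptor TNFRSF11B 2.52-fold higher from a dim level. The death ligand TNFSF10 (TRAIL) was lower by -0.54 ± 0.05, with all 3 probe sets lower.

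Of 31 NF-kB and inflammatory genes measured, 17 were lower (54.8%, against 23.0% of all genes) and 8 higher (25.8%, against 24.2%; median -0.37). The cytokine IL11 read 9.76, 9.73 and 9.62 in Vec cells and 6.93, 6.59 and 6.80 in VHL cells, 7.62-fold lower. The neutrophil chemokine CXCL8 read 11.27, 11.02 and 11.14 against 9.84, 9.13 and 9.12, a difference of -1.78 ± 0.21 (adjusted p = 9.62e-06). IL6 read 11.71, 11.36 and 11.31 against 10.40, 10.03 and 9.85, a difference of -1.37 ± 0.16. The first VHL array was the highest of its group for both, and without it the differences were -2.02 and -1.52. The prostaglandin synthase PTGS2 was 2.69-fold lower, to a dim level, and the monocyte chemokine CCL2 2.43-fold higher.

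Interferon response and antigen presentation genes were more often higher, 19 of 36 measured (52.8%, against 24.2% of all genes) with 4 lower, 9 of the rises being at least 2-fold (median 0.29). IFIT1, an interferon-induced RNA-binding protein, read 4.90, 5.10 and 5.08 in Vec cells and 7.37, 7.28 and 7.45 in VHL cells, 5.05-fold higher from a dim level. CD74, the invariant chain of MHC class II, read 7.74, 7.91 and 7.80 against 9.78, 9.76 and 9.75, 3.85-fold higher. The immunoproteasome subunit PSMB9 was 2.56-fold higher. IFI44 was 3.14-fold higher on 1 of 2 probe sets, and without probe sets that mark shared sequence its difference was 0.06 and not called. The summed linear level of 11 blood cell markers ran from 567.9 to 622.0 on Vec arrays and from 591.0 to 647.3 on VHL arrays, with 8 of the 11 dim on all 6 arrays. Their part in the interferon genes was not tested.

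Among 21 measured G1 cyclins, kinases and inhibitors, 6 were higher (28.6%, against 24.2% of all genes) and 8 lower (38.1%, against 23.0%). Their median was -0.05. CCND1, cyclin D1, read 11.09, 11.20 and 11.05 in Vec cells and 9.60, 9.51 and 9.57 in VHL cells, 2.94-fold lower (adjusted p = 3.46e-09), opposite to CCND2. The inhibitor CDKN1C (p57) read 7.05, 7.17 and 7.41 against 9.36, 9.59 and 9.67, 5.02-fold higher. DNA replication genes were balanced, at 10 higher and 10 lower of 28 (35.7% each, median -0.01). Mitosis genes were mostly higher, 19 of 24 measured (79.2%, against 24.2% of all genes) with 3 lower (12.5%, against 23.0%; median 0.28), and 1 of them reached 2-fold. This was the kinetochore protein CENPF, at 1.03 ± 0.06 on 2 of 3 probe sets, which without probe sets that mark shared sequence differed by 0.025 and was not called. The mitotic kinase PLK1 was higher by 0.80 ± 0.06, cyclin B2 (CCNB2) by 0.77 ± 0.04, KIF20A by 0.76 ± 0.07 and topoisomerase TOP2A by 0.75 ± 0.07.

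Immediate early and MAP kinase feedback genes were mostly lower, 22 of 37 measured (59.5%, against 23.0% of all genes) with 7 higher (18.9%, against 24.2%; median -0.28). DUSP5, a phosphatase that switches off ERK, read 11.12, 10.93 and 11.04 in Vec cells and 8.73, 8.60 and 8.64 in VHL cells, a difference of -2.37 ± 0.10. DUSP1 (-1.43 ± 0.05), the AP-1 subunit JUN (-1.28 ± 0.06, 4 probe sets), SPRY2 (-1.09 ± 0.06) and IER3 (-1.01 ± 0.08) were lower too.

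Matrix genes changed strongly in both directions. Of 33 collagens and collagen-modifying enzymes measured, 10 were higher (30.3%, against 24.2% of all genes) and 12 lower (36.4%, against 23.0%). Past 2-fold were 2 and 8 of these, which 2.19% of all genes reached in each direction (median -0.04). COL5A1 read 9.92, 10.03 and 9.91 in Vec cells and 6.66, 6.71 and 6.83 in VHL cells. COL4A5, a basement membrane collagen, read 5.15, 5.12 and 5.16 against 7.59, 8.34 and 8.49, a difference of 2.99 ± 0.18 from a dim level, and COL4A4, also dim in Vec cells, was higher by 1.83 ± 0.18. Among 45 other matrix genes 16 were higher (35.6%) and 13 lower (28.9%, median 0.03). FN1, fibronectin, whose deposition in the matrix is known to need VHL, read 12.47, 12.55 and 12.46 against 13.74, 13.69 and 13.72, a difference of 1.23 ± 0.05 with all 6 probe sets higher. The laminin chains LAMA5 (7.48-fold higher) and LAMB3 (4.72-fold lower) went opposite ways, and the metalloproteinases MMP7 and MMP1 were 5.41-fold and 4.89-fold higher.

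Epithelial and tubule genes showed no single shift. Of 28 keratins, cadherins, claudins and transition factors measured, 6 were higher (21.4%, against 24.2% of all genes) and 11 lower (39.3%, against 23.0%). Their median was -0.07. Keratin KRT19 was 2.78-fold lower and the transition factor SNAI2 2.60-fold lower, while the kidney cadherin CDH16 read 8.08, 8.05 and 7.95 in Vec cells and 9.21, 9.36 and 9.17 in VHL cells, 2.33-fold higher. Of 26 kidney tubule genes measured, 9 were higher (34.6%) and 5 lower (19.2%, median 0.02), and 13 were dim on all 6 arrays. After KL, the scaffold PDZK1 of the proximal tubule brush border was 2.92-fold higher. The amino acid transporter subunit SLC3A1 read 7.21, 7.27 and 7.51 against 10.12, 10.24 and 10.18, a difference of 2.85 ± 0.09, but without probe sets that mark shared sequence its difference was -0.016. The creatine synthesis enzyme GATM was 2.53-fold lower, to a dim level.

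Among inhibins, TGF-beta and BMP genes 11 of 29 were higher (37.9%, against 24.2% of all genes) and 9 lower (31.0%, against 23.0%). Their median was -0.02. INHBA, the activin A subunit, read 11.59, 11.52 and 11.50 in Vec cells and 9.11, 8.62 and 8.54 in VHL cells, 6.85-fold lower. The inhibitory helix-loop-helix protein ID4 was 6.40-fold higher on the brightest of 3 probe sets, all higher, and the follistatin-like protein FSTL1 3.29-fold higher. Regulators of G-protein signalling were called in 12 of 13 cases, 6 in each direction (46.2% each, against 24.2% higher and 23.0% lower over all genes), with RGS14 2.71-fold higher and RGS3 2.88-fold lower. HOX genes gave 5 higher and 5 lower of 19, glycosyltransferases 4 and 5 of 20, metallothioneins 1 and 2 of 8, and ribosomal proteins 2 and 5 of 19.

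RGS5 and smooth muscle actin ACTA2 (0.93 ± 0.06, 1 of 2 probe sets) are also markers of fibroblasts and pericytes, and were the called members of that list of 11, both higher (18.2%, against 24.2% of all genes). The summed linear level of the list was 877 to 903 on Vec arrays and 4025 to 4621 on VHL arrays. RGS5 alone made up 184.7 to 199.7 and 3158 to 3801 of it, and the sum of the other 10 markers was 677.3 to 718.3 and 819.9 to 874.9. Of the 11 members, 7 were dim on all 6 arrays, among them PDGFRA, PDGFRB, THY1 and LUM. Of 12 endothelial markers 10 were dim on all 6 arrays, and the sum ran from 646.6 to 660.5 in Vec cells and from 619.6 to 654.6 in VHL cells. In bulk RNA, a change in the number of cells of a type and a change in RNA per cell cannot be told apart.

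The same lines in full medium differed in 5520 genes (46.1%), 2763 higher in VHL cells (23.1%) and 2757 lower (23.0%). Of these 510 were at least 2-fold (4.26%), 243 higher (2.03%) and 267 lower (2.23%), and the arrays did not overlap in 6364 genes (53.2%). The comparisons share no arrays but share the estimate of spread. Called in both with the same direction were 4656 genes, 82.4% of the calls in deprived medium and 84.3% of those in full medium, and 4 genes were called in opposite directions. These were DDIT3 and the DNA damage gene GADD45A, higher in VHL cells in deprived medium by 0.18 and 0.26, and the ephrin EFNB3 and the organic anion transporter SLC22A6, at -0.15 and -0.21 there, each with the other sign in full medium. Tested directly for a change between media, DDIT3 was called (limma, adjusted p = 0.01). GADD45A (0.0998), EFNB3 (0.128) and SLC22A6 (0.185) were not. Among calls of at least 2-fold, 451 were shared, 86.1% and 88.4%. Across genes, which are not independent, the differences in the media correlated with r = 0.96. KL was at 6.33 in full medium and 5.71 in deprived medium, COXFA4L2 at -5.69 and -5.50, ADM at -3.56 and -3.20 and SLC2A1 at -2.28 and -2.08. The 95% interval of a difference between media, not adjusted for the number of genes, reached a median of 0.2 to either side. Calls were adjusted, and the smallest called change was 0.33. Changes well above 0.2 also went uncalled, as for CXCL8 and INHBA below. A gene not called is therefore not shown to be alike in both media.

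**Figure D4:**
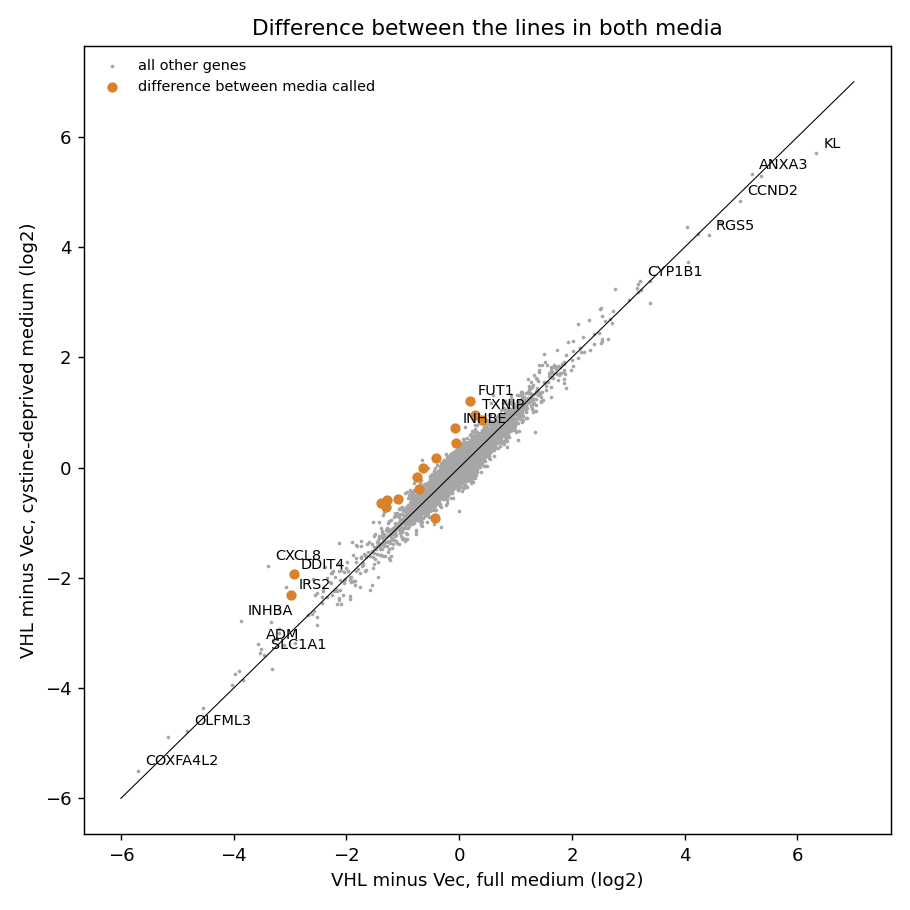
Log2 difference, VHL minus Vec, in full medium (horizontal axis) and in deprived medium (vertical axis), 1 point per gene for 11963 genes, with the 16 genes whose difference changed between media marked. Points lie along the diagonal (r = 0.96), and 15 of the 16 lie above it.

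The difference between the lines itself changed with medium in 16 genes (0.134%), 15 of them towards VHL (0.125%) and 1 towards Vec (0.00836%). DDIT4 and FUT1 reached 2-fold (0.0167%), although FUT1 was dim except in VHL cells in deprived medium. For 1176 genes the unadjusted p was under 0.05. Of the 16 genes, 10 differed less between the lines in deprived than in full medium. DDIT4 averaged 11.45 in Vec and 8.51 in VHL cells in full medium, and 12.70 and 10.77 in deprived medium, so the difference went from -2.94 to -1.93 (change 1.01 ± 0.06, adjusted p = 1.31e-05). IRS2, an adaptor of the insulin receptor, averaged 12.11 and 9.13, then 12.18 and 9.87 (change 0.68 ± 0.06, adjusted p = 0.000156).

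Several of these genes belong to the ATF4 and amino acid response, a list chosen with earlier results of these data known. Of its 33 measured members 8 changed, against 0.134% of all genes. Each changed towards VHL, as did 15 of the 16 genes called. Among the 8 is ATF4 itself, whose call was lost whichever of the 12 arrays was left out. MTHFD2, a mitochondrial folate enzyme, averaged 11.95 in Vec and 11.32 in VHL cells in full medium and 12.60 in both in deprived medium, where it was not called (adjusted p = 0.985; change 0.63 ± 0.07). The transcription factor ATF3 went from -1.40 to -0.63, and the mitochondrial gluconeogenic enzyme PCK2 from -1.29 to -0.59. DDIT3 (CHOP), a stress-induced factor, went from -0.42 to 0.18, and its call in deprived medium (adjusted p = 0.0204) was lost without VHL array 1 (adjusted p = 0.0848), Vec array 2 (0.0541) or Vec array 3 (0.074). INHBE averaged 4.77 and 4.70 in full medium, dim in both, and 6.49 and 7.20 in deprived medium. STC2, a secreted stanniocalcin, went from -0.75 to -0.18, its 2 probe sets pointing opposite ways in deprived medium; averaged, they differed by 0.089, which was not called.

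TXNIP, an inhibitor of thioredoxin and of glucose uptake, went from 0.28 to 0.96, with mean levels of 10.49 in Vec and 10.76 in VHL cells in full medium and 10.91 and 11.87 in deprived medium. TFRC went from -1.30 to -0.71. Apart from ATF4, the 10 genes described here stayed called under every alternative run for them. CXCL8 and INHBA had larger changes, 1.61 and 1.10, which were not called (adjusted p = 0.0727 for each).

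**Figure D5:**
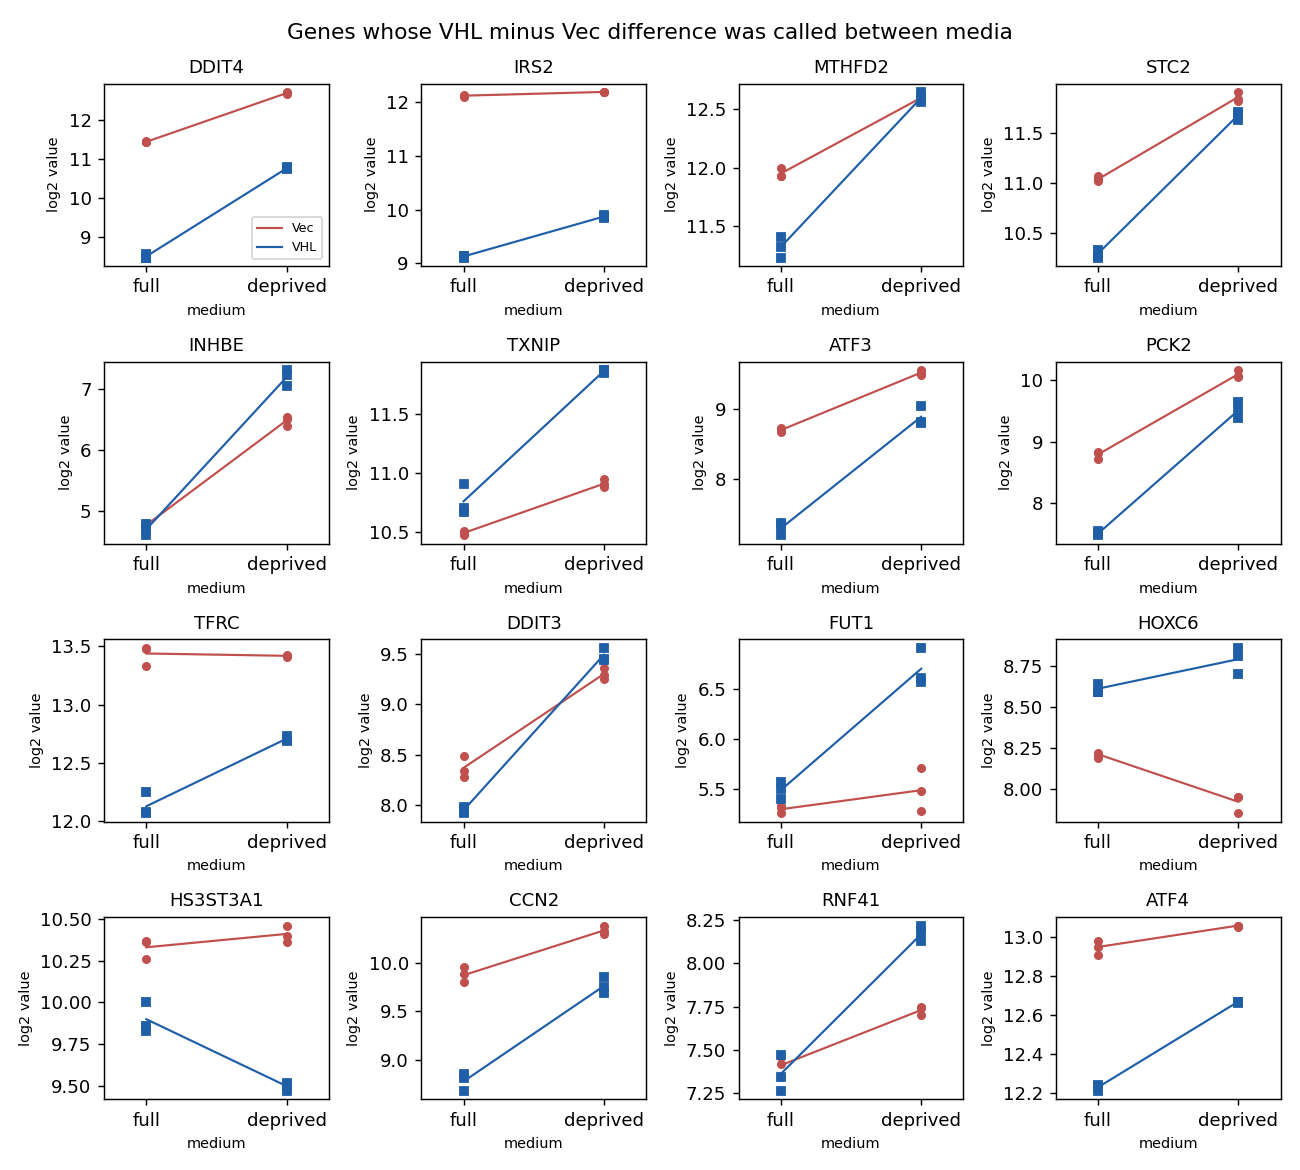
Log2 expression (vertical axis) of the 16 genes whose difference between the lines was called between media, 1 panel per gene, in full and deprived medium (horizontal axis), with 1 point per array (Vec circles, VHL squares, 3 arrays per group) and lines joining group means. The DDIT4 means lie closer together in deprived medium (12.70 and 10.77) than in full medium (11.45 and 8.51), and the MTHFD2 means meet at 12.60.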

How the data were processed

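RNA from 12 samples of RCC4 cells was measured on single-colour Affymetrix arrays, with RNA purified on columns and biotin-labelled targets made with the MessageAmp Premier kit, per the labels' protocols. The authors deposited log2 expression values for 22215 probe sets; the unit was read from the values (3.26 to 14.79), and their normalization is not given in the sources used here. Of these probe sets 19064 named 1 gene, 1043 several and 2108 none, by platform annotation updated through RefSeq (GRCh38.p14) for 19052; those naming several genes or none were left out. The probe set with the highest mean over 12 arrays stood for each gene, a choice for 4310 genes. Values were used as deposited, with no filter.

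Group means were fitted over all 12 arrays in limma 3.58.1 (R 4.3.3; 8 residual degrees of freedom, 12.7 after moderation), with two-sided p-values. On simulated arrays the deprived contrast recovered 45.6%, 90.9% and 100% of changes of 0.25, 0.5 and 1, with 7 false calls. Far fewer genes changed there than were called in these data, and the contrast between media was not assessed. The number of arrays limits precision. Gene lists (36, with 794 of 911 genes measured; 31 genes are on more than 1 list) are described by counts and medians. The members and lists were chosen with earlier results of these data known. Named genes were VHL, VEGFA, CCND1, SLC2A1, TNF and TNFRSF1A, the 15 largest rises and falls without overlap, up to 5 called members per list by size, and the 10 genes with the smallest p for a difference between media. ARNT, LOX, KDM5B, PFKM, SLC7A11, GPX4, the genes called in opposite directions and the remaining genes that differed between media fall outside this rule and were named after their values were seen. Replicate numbers were not treated as pairs: deviations from group means of same-numbered deprived arrays correlated between -0.045 and 0.133 (3 pairs). Alternatives covered scaling, dim genes, probe set choice, the variance model, the arrays fitted, the block and each array left out.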

Additional observations from a re-analysis of the deposited data

Results flagged for a closer look

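In 16 genes the VHL minus Vec difference itself differed between media, by limma's interaction test over 11963 genes. Values are the difference in deprived medium minus that in full medium, on the log2 scale. The change was 1.01 for DDIT4, 0.68 for IRS2, 0.63 for MTHFD2, 0.57 for STC2, 0.79 for INHBE, 0.68 for TXNIP, 0.76 for ATF3, 0.70 for PCK2, 0.59 for TFRC and 0.60 for DDIT3. Adjusted p for these 10 ran no higher than 0.045 in any alternative run, the highest being for TFRC.

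The other 6 were less stable. FUT1, a fucosyltransferase that makes the H antigen, changed by 1.02. It averaged 5.30 in Vec and 5.49 in VHL cells in full medium and 5.49 and 6.70 in deprived medium. All of these levels but the last were dim, so the size of the change may be limited by background. Its call was lost without 2 of the 12 arrays in turn, Vec array 1 in deprived medium or Vec array 2 in full medium (adjusted p up to 0.0602). The homeobox gene HOXC6 changed by 0.47 and was called in 8 of 18 alternatives, with adjusted p from 0.0125 to 0.0844 as single arrays were left out. The heparan sulfate sulfotransferase HS3ST3A1 changed by -0.48, alone in that direction, and was called in 7 of 19. Its adjusted p ran from 0.0401 to 0.107 as single arrays were left out. The ubiquitin ligase RNF41 changed by 0.49 and was called in 5 of 18 (0.0158 to 0.107 as single arrays were left out). The matricellular growth factor CCN2 changed by 0.52 and was called in 8 of 19 (0.0401 to 0.116). ATF4 itself changed by 0.33, with mean levels of 12.95 in Vec and 12.23 in VHL cells in full medium and 13.06 and 12.67 in deprived medium. It was called in 4 of 19, and its call was lost whichever of the 12 arrays was left out (0.0682 to 0.126).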

How the results depend on the processing

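Without probe sets whose names end in _x_at or _s_at, which leaves fewer genes to test, 3505 genes were called in deprived medium (1764 higher, 1741 lower, 343 at least 2-fold) and 3427 in full medium. With a variance trend and robust moderation 45 genes differed between media instead of 16; the cause was not tested. Leaving out each array in turn gave 5226 to 5416 calls in deprived medium, 5085 to 5274 in full medium and 11 to 16 between media. With the replicate number as a block, counts were 5664, 5517 and 16, and with the block HS3ST3A1, RNF41, CCN2 and ATF4 were no longer called between media. Median centring made 2763 of 5609 calls in deprived medium higher and quantile scaling 2931 of 5754. Named genes whose difference in deprived medium reversed were GDF15 (-0.041) and SLC3A1 (-0.016) without those probe sets and STC2 (0.089) with probe sets averaged; none of the 3 was then called, and the probe set used changed by construction. Without those probe sets, 8 of the 135 named genes still measured were no longer called, and under each other setting fitted per gene at most 5 of up to 199 lost their call. Testing each probe set on its own, an alternative chosen after seeing the data, gave 8326 calls. Detection calls were not used, so differences among dim values may be limited by background.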

Other observations

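Called genes were spread unevenly over chromosomes (gene locations by RefSeq name, assembly GRCh38.p14). On chromosome 16, 211 of 524 genes were higher in VHL cells in deprived medium (40.3%) and 43 lower (8.21%), and on chromosome 13, 88 of 214 were higher (41.1%) and 35 lower (16.4%). On chromosome 10 the reverse held, with 55 of 451 higher (12.2%) and 214 lower (47.5%), a median difference of -0.15 in deprived and in full medium. Chromosome 22 had 33 of 312 higher (10.6%) and 111 lower (35.6%). The shares over all genes were 24.2% and 23.0%. Genes of a chromosome are not independent, and no cause was tested.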
